A study of Mus musculus with 12 samples.

Results

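Receptor tyrosine kinases were followed in B16-OVA cells, mouse melanoma cells of 1 line with ovalbumin as a model antigen, after addition of a MEK inhibitor. The members are Egfr, Erbb2, Erbb3, Fgfr1, Fgfr3, Igf1r, Insr, Met, Ddr1 and Axl, and their probe sets are those that the array annotation pairs with 1 of these genes alone. They amount to 35 of the 45037 probe sets measured, for 10 of 18193 genes. Total RNA of cultured cells was hybridised to 12 Affymetrix mouse expression arrays, 3 in each of 4 groups: 100 nM GDC-0623 (MEKi) for 24 h, DMSO for 24 h, 100 nM GDC-0623 for 72 h and DMSO for 72 h. GDC-0623 is a small molecule inhibitor of the kinase MEK, and DMSO is its solvent, given at the same concentration. The design describes the arrays of a group as biological replicates and does not say that each came from a culture of its own. The p-values therefore cover only how far these arrays spread, and that spread can be partly technical. The cells were grown in a monolayer with no host tissue.

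Receptor tyrosine kinases sit in the cell membrane and, once activated, mostly by a ligand, phosphorylate tyrosines on paired receptor molecules, where adaptors then dock. The adaptors lead to RAS, RAF, MEK and ERK and, in parallel, to PI3K and AKT. ERK in turn limits the receptors and their adaptors through phosphorylation and through inhibitors whose genes it switches on, and in melanoma cells several of these receptors are known for a part in the response to drugs against this pathway.

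Values are log2 signals as deposited, so a difference of 1 is a 2-fold difference, and they are compared between arrays for 1 probe set at a time. A probe set was called where the adjusted p of its limma fit lay under 0.05, with adjustment over all 45037 probe sets. Array medians lay between 5.31 and 5.42, and arrays of 1 group correlated at 0.996 to 0.998 across probe sets. All 8 melanocyte markers were above the median probe set mean of 5.36, against 2 of 6 immune, 2 of 7 fibroblast, 1 of 6 endothelial and 1 of 6 epithelial markers. Of 5 genes known to follow ERK activity (Dusp6, Spry4, Etv5, Etv4 and Egr1), 5 were called lower with MEKi at 24 h and 4 at 72 h. The count at 72 h was 2 when replicate 1 or 3 of DMSO, or replicate 1 or 2 of MEKi, was left out. At 24 h MEKi replicate 3 read 10.58 for Dusp6, where replicates 1 and 2 read 9.95 and 9.88. For Etv5 it read 6.08, where they read 4.35 and 4.22. At 72 h MEKi replicate 3 read 9.87 for Egr1, against 5.91 and 6.47. Replicate 3 was also the highest MEKi array for Spry4 at 24 h and for Spry4, Etv5 and Etv4 at 72 h. It was not the highest for Etv4 and Egr1 at 24 h or Dusp6 at 72 h. Without MEKi replicate 3 at 24 h, the count of all probe sets called rose from 3801 to 5091. Without any other 1 array at 24 h it was 1133 to 1747. At 72 h that count fell from 3260 to 2716 without MEKi replicate 3. Whether the drug acted evenly across replicates was not tested.

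Promoters are shown for Igf1r and Axl, which had probe sets called lower with MEKi, and for Met and Ddr1, which had probe sets called higher. At 24 h these were 2 of 5 of Igf1r and 1 of 2 of Axl, lower, and 1 of 2 of Met, higher. At 72 h 4 of 8 of Ddr1 were higher. The sequences are RefSeq's on build GRCm38.p6, from 250 bases before to 50 bases after a start, 5′ to 3′ on the gene's strand. For Ddr1, 1 of its 4 entries is shown, and the array does not tell which start was used. The 2 entries of Fgfr3, also called lower at 24 h, are not shown, and Erbb3, Fgfr1 and Insr have no entry. The capitals mark matches on either strand to an ETS core (CCGGAA), a forkhead motif (GTAAACA), the E-boxes CACGTG and CATGTG, an AP-1 motif (TGANTCA) and a GC box (GGGCGG).
Igf1r, chr7:67952007-67952306, plus strand: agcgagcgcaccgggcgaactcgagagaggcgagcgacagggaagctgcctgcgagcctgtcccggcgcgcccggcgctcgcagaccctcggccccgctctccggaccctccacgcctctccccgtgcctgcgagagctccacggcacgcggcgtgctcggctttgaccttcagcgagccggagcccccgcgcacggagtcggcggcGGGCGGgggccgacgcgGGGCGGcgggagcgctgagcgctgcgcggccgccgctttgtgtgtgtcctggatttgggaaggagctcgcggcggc
Axl, chr7:25788684-25788983, minus strand: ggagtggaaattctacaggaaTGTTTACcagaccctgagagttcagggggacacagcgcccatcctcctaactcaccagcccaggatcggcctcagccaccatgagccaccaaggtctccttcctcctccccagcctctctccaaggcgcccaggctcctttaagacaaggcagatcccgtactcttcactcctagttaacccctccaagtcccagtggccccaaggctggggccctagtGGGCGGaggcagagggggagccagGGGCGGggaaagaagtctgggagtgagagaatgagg
Met, chr6:17463707-17464006, plus strand: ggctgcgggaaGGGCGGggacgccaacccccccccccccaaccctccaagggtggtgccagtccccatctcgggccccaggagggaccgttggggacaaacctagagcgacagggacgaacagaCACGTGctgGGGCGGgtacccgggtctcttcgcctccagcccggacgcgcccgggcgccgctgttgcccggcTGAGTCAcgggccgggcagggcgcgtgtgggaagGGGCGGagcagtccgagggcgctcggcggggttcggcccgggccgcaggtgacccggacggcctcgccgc
Ddr1, chr17:35704550-35704849, minus strand: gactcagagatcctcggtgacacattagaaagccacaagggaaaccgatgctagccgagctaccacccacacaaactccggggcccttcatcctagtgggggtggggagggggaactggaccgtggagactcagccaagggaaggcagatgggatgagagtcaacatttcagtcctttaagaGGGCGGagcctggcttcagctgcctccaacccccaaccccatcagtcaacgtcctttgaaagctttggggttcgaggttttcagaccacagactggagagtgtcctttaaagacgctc
The GC box was found in 9 of the 11 entries of the members, which cover 7 of the 10 genes, and in 35.7% of all 32851 promoters of this length. The ETS core was found in 2 entries, of Egfr and Ddr1 (14.9% of all promoters), and the AP-1 motif in 2, of Met and Ddr1 (7.81%). The Ddr1 entries with these 2 motifs are not the one shown. The forkhead motif was found in 1, that of Axl (3.65%), CACGTG in 1, that of Met (7.15%), and CATGTG in none (14.2%). These matches describe the letters only. Members had GC-rich entries, between 55.7% and 77.7%, beside a median of 52.7% over all promoters.

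The effect of MEKi on the receptors was not uniform in direction. By a test of the difference itself, it changed with time for 3 of 35 probe sets. At 24 h, Erbb3 (1 of 2 probe sets), Fgfr3 (1 of 2), Igf1r (2 of 5) and Axl (1 of 2) were lower. Met (1 of 2) was higher. At 72 h, Igf1r (2 of 5) and Insr (1 of 3) were lower, while Erbb3 (1 of 2) and Ddr1 (4 of 8) were higher. In all, 6 of 35 probe sets were called at 24 h, 1 higher and 5 lower, that is 17.1%, where 8.44% of all probe sets were called, 3.83% higher and 4.61% lower. At 72 h 8 of 35 were called, 5 higher and 3 lower, that is 22.9%, beside 7.24% of all, 2.99% higher and 4.25% lower. Of these 8, 4 were probe sets of Ddr1. The members and the gene lists below were chosen with earlier results of these data known. Their shares beside those of all, here and below, therefore do not test whether such genes respond more often than others. Counted by each gene's brightest probe set, none of 10 genes was higher and 4 were lower at 24 h, beside 5.01% and 5.86% of all genes. At 72 h, 2 were called higher and 2 lower, beside 4.03% and 5.14%. At an unadjusted p under 0.05, 1 of the 10 was higher (Met) and 5 were lower at 24 h. The share of all genes or probe sets under that unadjusted threshold was not counted, here or below. The median log2 difference of the 35 probe sets was 0.04 at 24 h and 0.12 at 72 h, and that of all probe sets was 0.01 at each time. Over the 10 genes, by their brightest probe sets, the median was -0.24 at 24 h and 0.12 at 72 h, so the sign at 24 h turned on whether probe sets or genes were counted. Since the RNA is of whole cultures, fewer cells of a type and less RNA per cell cannot be told apart. No probe set of the members moved 2-fold or more at either time.

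**Figure D1:**
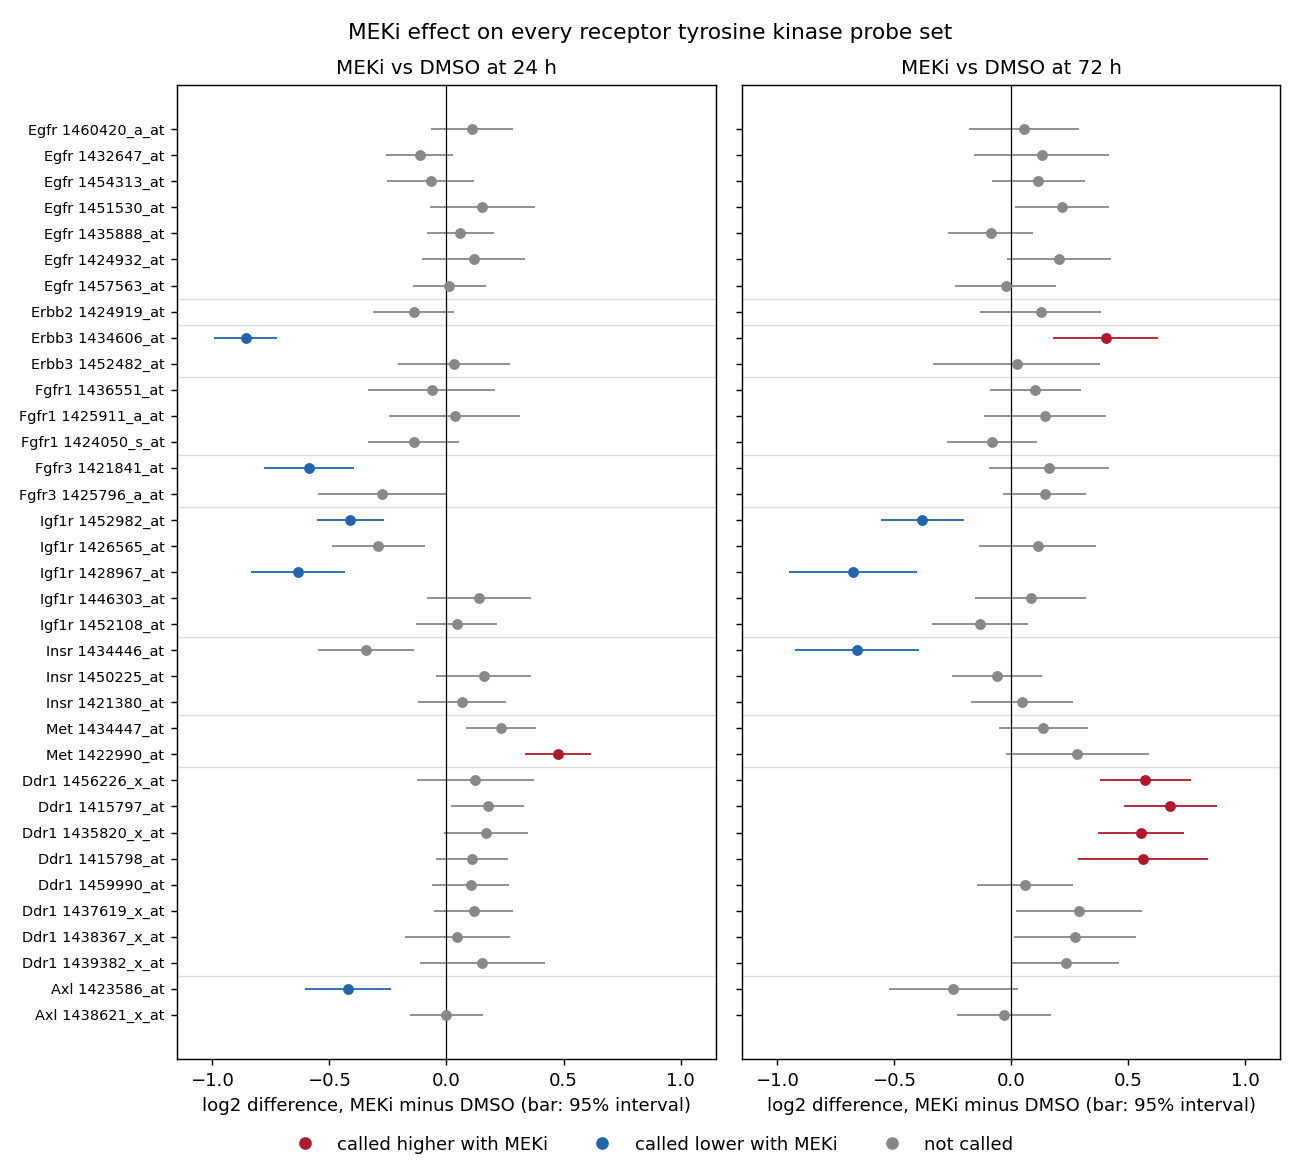
The log2 difference of MEKi minus DMSO is plotted for all 35 probe sets at 24 h (left) and 72 h (right), with points for the difference, bars for its 95% interval and colours for the limma call. Erbb3 1434606_at stands at -0.86 at 24 h and at 0.40 at 72 h, the Igf1r pair is lower at both times, and 4 Ddr1 probe sets are called higher at 72 h and none at 24 h.

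Erbb3, the ErbB member that binds neuregulins and signals through its partner because its own kinase is weak, had the largest decrease at 24 h and was on the other side of DMSO at 72 h. Its bright probe set, 1434606_at, read 9.15, 9.21 and 9.24 in the MEKi arrays at 24 h, against 10.05, 10.06 and 10.06 in the DMSO arrays. At 72 h it read 10.05, 10.27 and 10.13 in the MEKi arrays, against 9.63, 9.90 and 9.71 in the DMSO arrays. The groups did not overlap at either time, with every MEKi array low at 24 h and every MEKi array high at 72 h. The log2 difference was -0.86 ± 0.06 (SE, n = 3 each, limma adjusted p = 0.000815) at 24 h, or 1.81-fold lower. It was 0.40 ± 0.10 (adjusted p = 0.0394), or 1.32-fold higher, at 72 h. The effect at 72 h minus that at 24 h came to 1.26 ± 0.12 (limma on 12 arrays, adjusted p = 0.000205). The decrease at 24 h and the change between times kept their calls without any 1 array. The increase at 72 h lost its call without DMSO replicate 1 or 3 or any 1 MEKi replicate (adjusted p = 0.0694 to 0.161), with a log2 difference of 0.34 to 0.45.

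The second Erbb3 probe set, 1452482_at, averaged 4.98, below the median probe set, and was not called (log2 difference 0.03 ± 0.10 at 24 h and 0.02 ± 0.16 at 72 h). With both probe sets averaged, the difference of Erbb3 at 72 h was 0.21 (adjusted p = 0.348). Erbb2, the partner receptor with no ligand of its own, has 1 probe set, which read 7.12, 6.98 and 7.19 with MEKi and 7.19, 7.20 and 7.32 with DMSO at 24 h. The later readings were 7.21, 7.10 and 7.30 with MEKi and 7.06, 7.30 and 6.87 with DMSO. The Erbb2 groups overlapped at 72 h and met at 7.19 at 24 h, and neither difference was called, with 95% intervals of -0.31 to 0.03 at 24 h and -0.13 to 0.38 at 72 h.

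Egfr, the receptor for EGF and related ligands, has 7 probe sets, of which 3 were above the median and none was called by limma with MEKi at 24 h or 72 h, while at an unadjusted p under 0.05 there were 0 and 1. Its brightest, 1460420_a_at, read 7.10, 6.91 and 6.85 with MEKi and 6.85, 6.85 and 6.83 with DMSO at 24 h. It reached 7.46, 7.31 and 7.12 with MEKi and 7.16, 7.20 and 7.36 with DMSO at 72 h. The arrays touched at 24 h, overlapped at 72 h and were higher at the later time in either treatment. The log2 differences were 0.11 (95% interval -0.07 to 0.29) and 0.06 (-0.18 to 0.29). Across the 7 Egfr probe sets the differences ranged over -0.11 to 0.15 at 24 h and -0.09 to 0.22 at 72 h.

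**Figure D2:**
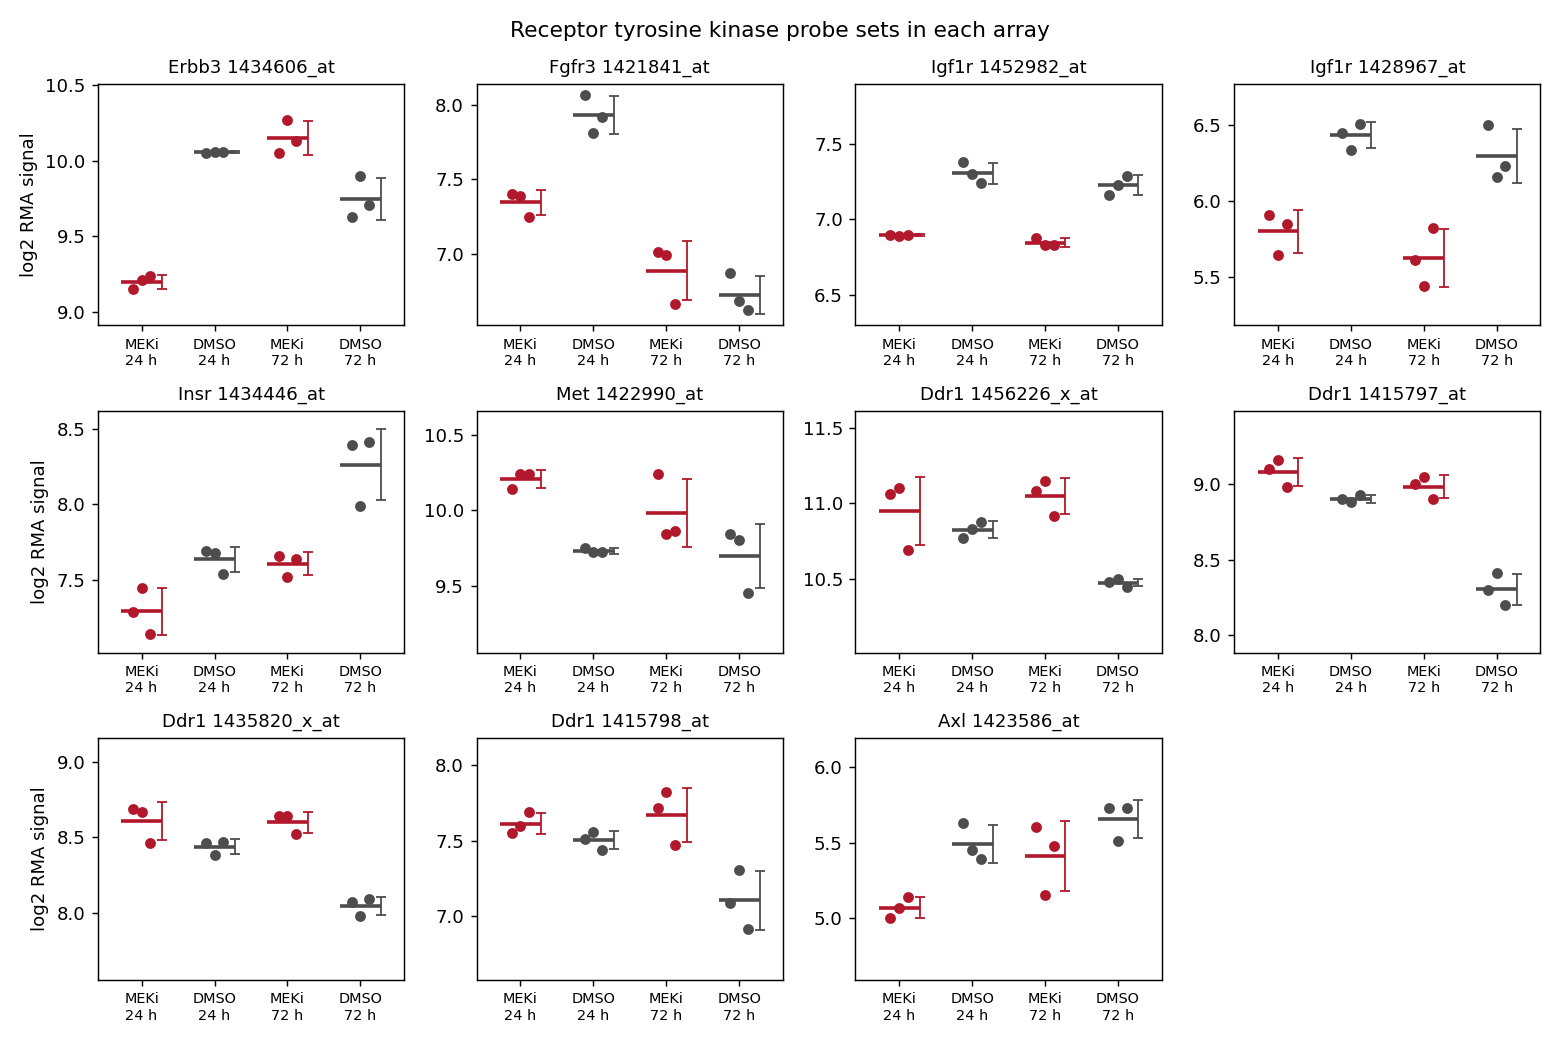
Each point is the log2 RMA signal of 1 array, with a line for the mean and a bar for the SD of 3 arrays, in the order MEKi 24 h, DMSO 24 h, MEKi 72 h and DMSO 72 h, for the 11 probe sets called with MEKi at either time. Vertical axes span different ranges; Erbb3 1434606_at crosses from below DMSO at 24 h (9.20) to above it at 72 h (10.15), and Fgfr3 1421841_at is lower at 72 h in either treatment.

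Fgfr3, a receptor for fibroblast growth factors, was lower with MEKi at 24 h and was not called at 72 h, when the DMSO arrays were lower than at 24 h. Probe set 1421841_at read 7.40, 7.39 and 7.25 with MEKi, against 8.07, 7.81 and 7.92 with DMSO, at 24 h. It read 7.01, 6.99 and 6.66 with MEKi, against 6.87, 6.68 and 6.62 with DMSO, at 72 h. The groups were apart at 24 h and overlapped at 72 h. The log2 difference was -0.59 ± 0.08 (limma adjusted p = 0.00682) at 24 h, a 1.5-fold decrease that held without any 1 array, and 0.16 ± 0.11 (adjusted p = 0.491) at 72 h. The change between times was 0.75 ± 0.15 (adjusted p = 0.0162), with adjusted p = 0.0512 and a value of 0.70 without MEKi 72 h replicate 2. The second probe set, 1425796_a_at, had the same signs, -0.27 ± 0.12 and 0.14 ± 0.08, and was not called. Fgfr1, a related receptor, had 3 probe sets that averaged 3.28 to 4.74, all below the median probe set, and none was called, nor had any an unadjusted p under 0.05. Its brightest had 95% intervals of -0.33 to 0.21 at 24 h and -0.09 to 0.30 at 72 h.

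Igf1r and Insr, the receptors for insulin-like growth factors and for insulin, were lower with MEKi. The brightest Igf1r probe set, 1452982_at, read 6.90, 6.89 and 6.90 with MEKi and 7.38, 7.30 and 7.24 with DMSO at 24 h. The 72 h values were 6.88, 6.83 and 6.83 with MEKi and 7.16, 7.23 and 7.29 with DMSO. Each MEKi array lay below each DMSO array at both times, and the MEKi arrays stayed within a narrow band. The log2 differences were -0.41 ± 0.06 (limma adjusted p = 0.00856) and -0.38 ± 0.08 (adjusted p = 0.0193), and the change between times was 0.03 (95% interval -0.17 to 0.23). The 72 h call was lost without DMSO replicate 3 or any 1 MEKi replicate (adjusted p = 0.0506 to 0.0838).

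A second Igf1r probe set, 1428967_at, read 5.91, 5.64 and 5.85 with MEKi and 6.45, 6.34 and 6.51 with DMSO at 24 h. The 72 h signals of 1428967_at were 5.61, 5.44 and 5.82 with MEKi and 6.50, 6.16 and 6.23 with DMSO, again with no overlap. Its log2 differences were -0.63 ± 0.09 (adjusted p = 0.00589) and -0.67 ± 0.12 (adjusted p = 0.0103), and both calls held without any 1 array. The annotation gives these 2 probe sets the same source sequence. The other 3 Igf1r probe sets were not called. Of these, 1426565_at had -0.29 ± 0.09 at 24 h (adjusted p = 0.0791) and 0.11 ± 0.11 at 72 h, and 1446303_at and 1452108_at averaged 5.13 and 4.78. With the 5 probe sets averaged, the difference of Igf1r at 72 h was -0.20 (adjusted p = 0.101).

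Insr rests on 1434446_at, which read 7.29, 7.45 and 7.14 with MEKi and 7.69, 7.68 and 7.54 with DMSO at 24 h. Its 72 h readings were 7.66, 7.52 and 7.64 with MEKi and 8.39, 7.99 and 8.41 with DMSO. The MEKi arrays were the lower ones at both times without overlap. The log2 difference of -0.34 ± 0.09 at 24 h was not called (limma adjusted p = 0.0533), and that of -0.66 ± 0.12 at 72 h was (adjusted p = 0.0101), a 1.58-fold decrease. The change between times was -0.31 (95% interval -0.65 to 0.03, adjusted p = 0.365), so a difference between the effects was not shown. Without MEKi 72 h replicate 2 the adjusted p at 72 h was 0.0508, and with the replicate number as a block the 24 h value had 0.0389. The other 2 Insr probe sets averaged 4.70 and 3.73 and were not called, and the mean of all 3 differed by -0.22 at 72 h (adjusted p = 0.084).

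Met, the receptor for hepatocyte growth factor, was higher with MEKi at 24 h by 1 of its 2 probe sets. Probe set 1422990_at read 10.14, 10.24 and 10.24 with MEKi and 9.75, 9.72 and 9.72 with DMSO at 24 h. At 72 h it read 10.24, 9.84 and 9.86 with MEKi and 9.84, 9.80 and 9.45 with DMSO. The groups were far apart at 24 h and met at 9.84 at 72 h, where MEKi replicate 1 stood above the other arrays. The log2 difference was 0.48 ± 0.06 (limma adjusted p = 0.00505) at 24 h, 1.39-fold higher and kept without any 1 array, and 0.28 ± 0.14 (adjusted p = 0.288) at 72 h. The brighter probe set, 1434447_at, read 13.49, 13.49 and 13.36 with MEKi and 13.25, 13.21 and 13.18 with DMSO at 24 h, with no overlap. Its difference of 0.23 ± 0.07 was not called (adjusted p = 0.0646), though it was without MEKi replicate 3 (0.28, adjusted p = 0.032). Averaged over both probe sets, Met differed by 0.36 at 24 h (adjusted p = 0.00381).

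Ddr1, a receptor for collagen, was higher with MEKi at 72 h by 4 of its 8 probe sets, which are the brightest 4. The brightest, 1456226_x_at, read 11.06, 11.10 and 10.69 with MEKi and 10.77, 10.83 and 10.88 with DMSO at 24 h. At 72 h it read 11.08, 11.15 and 10.92 with MEKi and 10.48, 10.5 and 10.45 with DMSO. At 24 h MEKi replicate 3 lay below the DMSO arrays and the others above, whereas at 72 h all MEKi arrays were above. The log2 difference was 0.12 ± 0.11 (limma adjusted p = 0.564) at 24 h and 0.57 ± 0.09 (adjusted p = 0.00479) at 72 h. Without MEKi replicate 3 the 24 h difference was 0.25 (adjusted p = 0.0523).

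For Ddr1 1415797_at the values were 9.10, 9.16 and 8.98 with MEKi and 8.90, 8.88 and 8.93 with DMSO at 24 h. They were 9.0, 9.05 and 8.90 with MEKi and 8.30, 8.41 and 8.20 with DMSO at 72 h. MEKi arrays were above DMSO arrays at both times, by more at 72 h, where the DMSO arrays were the lowest of the 12. The log2 difference was 0.18 ± 0.07 (adjusted p = 0.157) at 24 h and 0.68 ± 0.09 (adjusted p = 0.00253) at 72 h, with a change between times of 0.50 ± 0.11 (adjusted p = 0.0236). That change lost its call without replicate 1, 2 or 3 of DMSO at 24 h, replicate 1 of DMSO at 72 h, replicate 1 of MEKi at 24 h or replicate 2 of MEKi at 72 h (adjusted p = 0.0517 to 0.0713).

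The other called Ddr1 probe sets, 1435820_x_at and 1415798_at, were higher by 0.55 ± 0.08 (adjusted p = 0.00425) and 0.56 ± 0.12 (adjusted p = 0.0238) at 72 h. The call of 1415798_at ended without replicate 1 or 3 of DMSO or replicate 1 or 2 of MEKi (adjusted p = 0.0697 to 0.106), and the other 3 calls held without any 1 array. The change between times was not called for 1456226_x_at, 1435820_x_at and 1415798_at (0.38 to 0.45, limma adjusted p = 0.0813 to 0.133). All 8 Ddr1 probe sets had a positive difference at both times, over 0.05 to 0.18 at 24 h and 0.06 to 0.68 at 72 h. Probe sets of 1 gene share its transcripts and are not independent of each other, and those with names ending in x_at can also bind other transcripts.

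**Figure D3:**
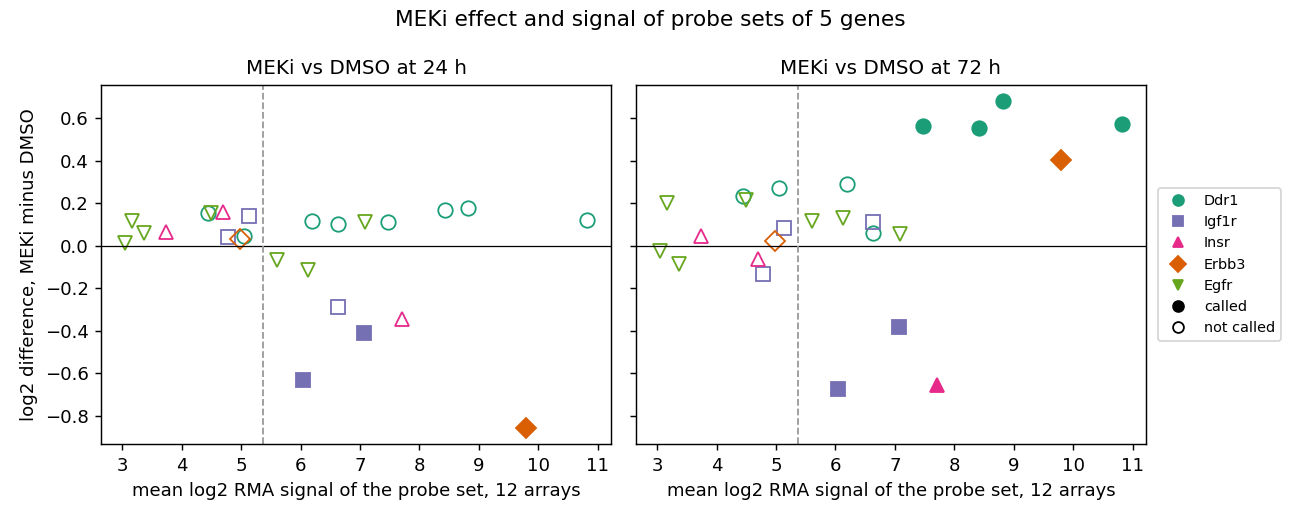
The log2 difference of MEKi minus DMSO is plotted against the mean log2 signal of each probe set of Ddr1, Igf1r, Insr, Erbb3 and Egfr at 24 h (left) and 72 h (right); filled symbols were called by limma and the dashed line is the median probe set mean, 5.36. All called probe sets lie right of the line, and the Ddr1 and Igf1r probe sets differ among themselves in their differences, over 0.06 to 0.68 and -0.67 to 0.11 at 72 h.

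Axl, the receptor for GAS6 that is known as a mark of poorly differentiated melanoma cells, was near the median probe set. Probe set 1423586_at read 5.0, 5.07 and 5.14 with MEKi and 5.63, 5.45 and 5.39 with DMSO at 24 h, and the groups did not overlap. At 72 h it read 5.60, 5.15 and 5.48 with MEKi and 5.73, 5.51 and 5.73 with DMSO, and they did. The log2 difference was -0.42 ± 0.08 (limma adjusted p = 0.0178) at 24 h and -0.25 ± 0.12 (adjusted p = 0.307) at 72 h. The 24 h call was lost without replicate 1 or 2 of either DMSO or MEKi (adjusted p = 0.0512 to 0.0784). The second probe set, 1438621_x_at, averaged 3.12 and was not called. At 24 h the summed log2 signal of the 8 melanocyte markers was 106.4 to 107.0 in MEKi arrays and 104.6 to 104.7 in DMSO arrays. That of the 6 endothelial markers was 25.8 to 27.4 in MEKi arrays and 24.7 to 25.2 in DMSO arrays, and that of the 7 fibroblast markers was 38.2 to 38.7 in MEKi arrays and 36.7 to 37.1 in DMSO arrays. The 6 immune markers summed to 26.8 to 27.6 in MEKi arrays and 26.3 to 26.4 in DMSO arrays. The sums of these lists overlapped between the groups at 72 h, as those of the 6 epithelial markers did at both times. The part of these levels in the receptors' values at 24 h was not tested.

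The receptors also differed between 72 h and 24 h without the drug. In DMSO 10 of 35 probe sets were called between the times, 3 higher and 7 lower at 72 h, that is 28.6%, beside 25.6% of all probe sets, 11.3% higher and 14.3% lower. The share of the members called was near that of all probe sets. Fgfr3 1421841_at had the largest change, -1.21 ± 0.10 (limma adjusted p = 0.000119), or 2.31-fold lower at 72 h, and 1425796_a_at was lower too, with -0.36 ± 0.09 (adjusted p = 0.017, and 0.0583 without DMSO 24 h replicate 1). The 4 bright Ddr1 probe sets were lower at 72 h by 0.35 to 0.60, and Ddr1 1459990_at was higher (0.34 ± 0.09, adjusted p = 0.0225). Erbb3 1434606_at was also lower at 72 h, with -0.31 ± 0.08 (adjusted p = 0.0264). Insr 1434446_at was higher by 0.63 ± 0.12 (adjusted p = 0.00488) and Egfr 1460420_a_at by 0.40 ± 0.08 (adjusted p = 0.00581). The other 6 Egfr probe sets were not called, and the mean of all 7 Egfr probe sets differed by 0.08 (adjusted p = 0.308).

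Some of the calls in DMSO turned on single arrays. That of Erbb3 was lost without any 1 array other than DMSO 72 h replicate 2 (adjusted p = 0.0637 to 0.0853). The Erbb3 call was also lost after quantile normalization again (-0.227, limma adjusted p = 0.0942). With the Erbb3 probe sets averaged, the difference was -0.115 (adjusted p = 0.435), which was not called either. That of Ddr1 1415798_at was lost without replicate 1 or 2 at 24 h or replicate 1 or 3 at 72 h (0.0501 to 0.0746), and that of Ddr1 1459990_at without replicate 1 at 24 h or replicate 2 at 72 h (0.0608 to 0.0875). The 3′ minus 5′ log2 signal of the Dap control RNAs, which are added before labelling, was 1.42 ± 0.04 at 72 h and 2.06 ± 0.08 at 24 h (SD, n = 6 each, two-sided exact permutation p = 0.00216, the smallest that 6 against 6 allows). The array medians averaged 5.393 at 72 h and 5.325 at 24 h (n = 6 each, exact permutation p = 0.00216). The part of either shift in the values over time was not tested, and the arrays of 1 time hold MEKi and DMSO alike.

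The effect of MEKi at 72 h differed from that at 24 h for 3 of 35 probe sets, 8.57%, all in the direction of a higher value at 72 h, beside 3.02% of all probe sets, 1.36% higher and 1.66% lower. These were Erbb3 1434606_at, Fgfr3 1421841_at and Ddr1 1415797_at, whose values stand above. The comparisons at 24 h and 72 h share no arrays, while the DMSO groups enter the change over time as well.

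Genes around the receptors were counted by their brightest probe set, for which 5.01% of all genes were higher and 5.86% lower at 24 h, and 4.03% higher and 5.14% lower at 72 h. Of 46 other receptor tyrosine kinases measured, 1 was higher (Flt4) and 1 lower (Pdgfra) at 24 h, and none was higher and 2 were lower (Epha3 and Ryk) at 72 h. At an unadjusted p under 0.05, for which no share of all genes was counted, these counts were 5 and 3 at 24 h. They were 3 and 4 at 72 h. The call of Flt4 was lost without replicate 1 or 3 of DMSO or replicate 2 of MEKi, that of Pdgfra without any 1 array other than MEKi replicate 3, and that of Ryk without any 1 array (adjusted p = 0.0526 to 0.176). With the replicate number as a block Ryk had an adjusted p of 0.0679. Epha3, an ephrin receptor, averaged 9.94 ± 0.33 with MEKi and 11 ± 0.14 with DMSO at 72 h (SD, n = 3 each), a log2 difference of -1.06 ± 0.15 (limma adjusted p = 0.00363). At 24 h the difference of Epha3 was -0.05 ± 0.07. Of 22 ligands of the members, 2 were higher and none lower at 24 h, and 1 was higher and none lower at 72 h, with 1 and 0 lower at an unadjusted p under 0.05. Fgf1, a ligand of the fibroblast growth factor receptors, was higher at both times, with 7.85 ± 0.06 in MEKi and 7.30 ± 0.12 in DMSO at 24 h. At 72 h it averaged 8.23 ± 0.07 in MEKi and 7.33 ± 0.09 in DMSO. The differences of Fgf1 were 0.55 ± 0.08 (adjusted p = 0.00606) and 0.90 ± 0.09 (adjusted p = 0.000744). Nrg2, a neuregulin, differed by 0.31 ± 0.07 at 24 h (adjusted p = 0.0313) at a low signal of 4.82 with MEKi and 4.51 with DMSO. Its call was lost without any 1 array other than MEKi replicate 3 (0.0749 to 0.116). As the mean of its 3 probe sets Nrg2 differed by 0.08 at 24 h (adjusted p = 0.425).

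Of 24 adaptors and docking proteins, none was higher (3 at an unadjusted p under 0.05) and 1 lower (Shc1) at 24 h, and 3 were higher (Grb2, Gab2 and Dok1) and 2 lower (Irs1 and Nck2) at 72 h. The 24 h count was 0 without any 1 array other than MEKi replicate 3, so that the call of Shc1 was lost, and 4 without that one. Irs1, the docking protein of the insulin and IGF receptors, averaged 7.73 ± 0.18 with MEKi and 8.22 ± 0.07 with DMSO at 72 h, a difference of -0.49 ± 0.10 (limma adjusted p = 0.0198). Its call was lost without replicate 1 or 3 of DMSO or replicate 1 or 2 of MEKi (adjusted p = 0.0597 to 0.0907). Gab2, a docking protein that binds the phosphatase Shp2, differed by 0.44 ± 0.08 (adjusted p = 0.0119), and Nck2, an adaptor to the actin machinery, by -0.48 ± 0.08 (adjusted p = 0.0079). Dok1, which restrains receptor signalling, differed by 0.63 ± 0.14 (adjusted p = 0.0219). Gab2 lost its call without DMSO replicate 1 or MEKi replicate 1 or 2 (0.0513 to 0.0592), and Dok1 without the same arrays as Irs1 (0.0515 to 0.0831). The count of adaptors called at 72 h was 1 without replicate 1 or 2 of MEKi, 2 without replicate 1 and 3 without replicate 3 of DMSO.

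Of 29 negative regulators of receptors, none was higher, also at an unadjusted p under 0.05, and 7 were lower at 24 h, beside the 5.01% and 5.86% of all genes (Cbl, Errfi1, Ptprj, Ptpn2, Ptpn12, Fgfrl1 and Igfbp4), and 1 was higher (Lrig1) and 1 lower (Ptpn2) at 72 h. The median of the list was -0.04 at 24 h and -0.07 at 72 h, that of all genes 0.01 at each time. Igfbp4, which binds insulin-like growth factors outside the cell, averaged 10.4 ± 0.21 with MEKi and 11.3 ± 0.13 with DMSO at 24 h, a difference of -0.88 ± 0.11 (limma adjusted p = 0.00503). Cbl, a ubiquitin ligase that marks active receptors for degradation, differed by -0.39 ± 0.07 (adjusted p = 0.0118), and Fgfrl1, a receptor of the FGF family without a kinase domain, by -0.48 ± 0.11 (adjusted p = 0.0344). Ptpn2, a tyrosine phosphatase, differed by -0.35 ± 0.07 (adjusted p = 0.0229) at 24 h and -0.40 ± 0.10 (adjusted p = 0.0446) at 72 h. As the mean of its 4 probe sets Ptpn2 differed by -0.11 at 72 h (adjusted p = 0.495). After quantile normalization again its 72 h call was lost (adjusted p = 0.0588). The count at 24 h was 1 to 3 without any 1 array other than MEKi replicate 3, lowest without MEKi replicate 1 or 2. The count at 72 h was 0 without replicate 1 or 2 of DMSO or of MEKi, 1 without replicate 3 of DMSO and 1 with the replicate number as a block, where Lrig1 lost its call. With 1 array left out, Igfbp4 kept its call, Cbl lost it without MEKi replicate 1 or 2 (0.0532 to 0.0579) and Fgfrl1 without any 1 other than MEKi replicate 3 (0.0678 to 0.113). Ptpn2 lost it at 24 h without replicate 1 or 2 of DMSO or MEKi (0.0627 to 0.0904), and at 72 h without any 1 array other than MEKi replicate 3 (0.0503 to 0.178). Of 6 sheddases and gamma-secretase subunits, 1 was higher at 24 h (Psenen, 0.24 ± 0.06, adjusted p = 0.047) and none was called at 72 h, where 1 had an unadjusted p under 0.05. The call of Psenen was lost without any 1 array other than MEKi replicate 3 (0.0903 to 0.151).

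Over the 12 arrays, the genes whose brightest probe set ran most alike to Erbb3 1434606_at, of 11334 genes above the median, were Cdc42ep1 (Pearson's r = 0.96), Osgin1 (0.94), Grasp (0.94), Prorp (0.92) and Cxcl10 (0.91). For Insr 1434446_at, the member with the largest called change of a brightest probe set at 72 h, they were Top2b (0.97), Sp3 (0.97), Aldh18a1 (0.97), B330016D10Rik (0.96) and Tfb1m (0.96). These are the highest of many correlations and a description of 12 arrays that share their groups.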

How the data were processed

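From each sample 200 ng of total RNA was labelled, per the labels, and the authors normalized the arrays by RMA, which corrects background, equalises the distributions of the arrays and summarises each probe set. The deposited values are log2 signals of the authors with 2 decimals, used as they stand. Software versions and genome build are not given in the sources used here. Signal over background limits the precision of dim probe sets. Of 45101 probe sets 64 controls were left out. In the platform annotation 34945 of the others have 1 gene, 932 several and 9160 no gene. The main probe set of a gene is the brightest over 12 arrays.

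Each comparison was a limma fit (version 3.58.1, R 4.3.3) with empirical Bayes moderation, two-sided, with Benjamini-Hochberg adjustment over 45037 probe sets and a threshold of 0.05. The comparisons were MEKi with DMSO at each time and DMSO at 72 h with DMSO at 24 h, each on its own 6 arrays, and the difference of the MEKi effects was fitted on 12. The log2 difference is MEKi minus DMSO, or 72 h minus 24 h, with the moderated SE. The fits were tested on simulated data. All probe sets of the members are named, and of each other list up to 4 called genes with the largest change, besides all called genes by name in the counts, and the 5 genes most alike to the member with the largest called change at each time. The members and lists were chosen with earlier results of these data known. Same-numbered MEKi and DMSO samples deviated together at 72 h (r = 0.130 to 0.189 across probe sets), the pairing there coming from the values only, and less so at 24 h (0.0729 to 0.151). Alternatives were a replicate block, 1 fit of 12 arrays, brighter probe sets, median centring, quantile normalization again, a trended and robust prior, a 2-fold minimum, the mean over probe sets of a gene and the omission of each array in turn.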

Additional observations from a re-analysis of the deposited data

Results flagged for a closer look

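There were 3 results that stood out because the effect of MEKi differed between the times by a test of the difference itself, a limma contrast on 12 arrays. For Erbb3 1434606_at the effect at 72 h minus that at 24 h was 1.26, for Fgfr3 1421841_at 0.75 and for Ddr1 1415797_at 0.50. In Erbb3 the sign of the effect differed between the times, in Fgfr3 the effect was called at 24 h only and in Ddr1 at 72 h only. For Ddr1 the difference was called for 1 of 8 probe sets, and 6 of the fits with 1 array left out lost that call.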

How the results depend on the processing

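Of the member results, 27 were called in the report, and over 381 alternatives 313 kept their call and direction, 68 lost the call and none reversed. Under every alternative, the 2-fold minimum included, 2 of the 27 kept their call. With a 2-fold minimum the count of probe sets called was 0 at 24 h, 0 at 72 h, 1 for the difference of MEKi effects and 1 for DMSO over time. The trended and robust prior gave 5 for the difference. With 1 array left out the counts ranged over 5 to 7 at 24 h, 4 to 8 at 72 h, 1 to 4 for the difference and 6 to 10 for DMSO over time. The count at 72 h was 4 without MEKi 72 h replicate 2 and 5 without MEKi 72 h replicate 1 or DMSO 72 h replicate 3; the difference had 1 without MEKi 72 h replicate 2, and DMSO over time 6 without DMSO 24 h replicate 1. The replicate block gave 7, 8, 4 and 10, with all main calls among them at each comparison, and at 24 h, where each array correlated best with its own number but 1 pair stayed under 0.1, it added Insr. Among the gene lists, the adaptors called at 24 h were 7 with brighter probe sets only, 6 with the trended and robust prior and 0 after quantile normalization again, against 1 in the report. The negative regulators called at 72 h were 5 with 1 fit of 12 arrays and 4 with that prior, against 2.

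Values that were small and not called changed sign. The difference of Egfr was 0.049 as the mean of its probe sets and -0.14 to 0.035 with 1 array left out, and Egfr at 72 h was -0.025 to 0.15. Fgfr1 at 24 h was -0.19 to 0.027, and Fgfr1 in DMSO over time -0.033 after centring, -0.043 after quantile normalization again and -0.032 to 0.098 with 1 array left out. The difference of Igf1r was -0.0067 to 0.063. Met in DMSO over time was -0.04 after centring, -0.005 as the mean of its probe sets and -0.0083 to 0.057 with 1 array left out. As the mean of their probe sets Epha3 at 24 h was 0.022, Flt4 at 72 h 0.05 (-0.16 to 0.067 with 1 array left out) and Cbl at 72 h 0.058. Apart from the arrays and settings named, the cause was not tested. In dim probe sets close to background, differences in RNA can be compressed. Of the members, 15 of 35 lay below the median probe set mean, and how close these are to background was not measured.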
